A study of Homo sapiens with 10 samples.

Results

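The cyclic AMP (cAMP) phosphodiesterases PDE4A, PDE4B, PDE4C, PDE4D, PDE3A, PDE3B, PDE7A, PDE7B and PDE8A were followed in MV4-11 cells, a human acute myeloid leukemia (AML) cell line, with and without IRF8, a transcription factor of the interferon regulatory factor family. These 9 genes were taken by symbol from the 19590 genes measured by RNA-Seq. They were chosen by the normalized counts of this same contrast, in which PDE4B was nearly silent in the Control and high in the knockout, with its relatives added for comparison. The differences of the 9 genes between the groups are thus a description. No p-value is given for them, and their calls in the fit over all genes are only counted beside the share over all tested genes. The Control group held 4 libraries, made from cells that had received the control vector by infection, and the IRF8 KO group held 4 libraries of cells in which IRF8 was targeted with CRISPR. The knockout cells were lentiviral clones raised by limited dilution, and no label ties a library to a clone or to a guide RNA. The labels do not state whether the replicates came from separate cultures, so the p-values given for other genes measure only the spread between these libraries, which may be technical. All values below are normalized counts, the reads of a gene divided by the size factor of its library, and log2 fold changes compare IRF8 KO with Control on log2(normalized count + 1).

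cAMP is a second messenger that adenylyl cyclases make from ATP when receptors coupled to the stimulatory G protein are engaged, and it acts through protein kinase A (PKA), EPAC exchange factors and a few other binding proteins. Phosphodiesterases end the signal by hydrolysing cAMP to AMP. The PDE4 enzymes are specific for cAMP and are the targets of rolipram and roflumilast, and in monocytes and macrophages PDE4B is best known for its part in the production of inflammatory cytokines. The PDE3 enzymes hydrolyse both cAMP and cGMP and are inhibited by cGMP, while PDE7 and PDE8 enzymes are specific for cAMP and insensitive to rolipram.

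Promoter windows were read from RefSeq (GRCh38.p14), each with 250 bases before and 50 bases after an annotated transcription start. The table held 28 windows for 7 of the 9 genes, with 8 for PDE4D, 6 for PDE4B, 5 for PDE4A, 4 for PDE4C, 3 for PDE8A and 1 each for PDE3A and PDE7B, and some windows of a gene overlap. PDE3B and PDE7A had no entry. Of the 2 PDE4B sequences shown, the first lies at the outermost annotated start (chr1:65792260-65792529, plus strand) and the other at the innermost (chr1:66354285-66354554, plus strand), because PDE4B was the gene with the largest difference and its annotated starts differ in base composition. They run from 250 bases before the start to 20 bases after it, with the transcribed bases in capitals. The PDE4A window (chr19:10416523-10416792, plus strand) is shown with its cAMP response element (CRE), the palindrome TGACGTCA, in capitals.
PDE4B outermost start: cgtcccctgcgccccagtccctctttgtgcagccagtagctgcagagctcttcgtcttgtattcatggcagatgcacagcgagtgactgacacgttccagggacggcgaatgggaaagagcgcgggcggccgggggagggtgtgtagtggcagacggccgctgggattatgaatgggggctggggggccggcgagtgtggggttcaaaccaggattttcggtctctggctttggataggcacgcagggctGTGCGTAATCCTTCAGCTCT
PDE4B innermost start: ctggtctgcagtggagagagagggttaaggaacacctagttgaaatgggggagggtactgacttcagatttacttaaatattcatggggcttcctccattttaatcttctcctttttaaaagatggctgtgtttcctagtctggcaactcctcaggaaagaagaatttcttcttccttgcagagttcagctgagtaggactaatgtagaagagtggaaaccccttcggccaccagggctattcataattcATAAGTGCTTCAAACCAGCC
PDE4A first start: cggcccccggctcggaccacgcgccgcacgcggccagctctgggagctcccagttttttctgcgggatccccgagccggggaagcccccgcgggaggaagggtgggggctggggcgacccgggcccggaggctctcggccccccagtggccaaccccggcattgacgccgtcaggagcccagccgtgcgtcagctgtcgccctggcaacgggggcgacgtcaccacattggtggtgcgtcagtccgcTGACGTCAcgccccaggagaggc
The 6 PDE4B windows held between 30.7% and 62.3% G and C, with 61.7% in the outermost window and 44.3% in the innermost. On both strands of the full windows, TGACGTCA was found in 2 of the 28, the PDE4A window above and the PDE7B window (chr6:135851451-135851750), against 1.84% of all 34943 promoter windows. The shorter TGACG, which every TGACGTCA contains, was found in 4 of the 28 windows, against 24.5% of all windows, and 7 of its positions lay in the PDE4A window above. An interferon regulatory factor repeat, GAAA and another GAAA with any 2 bases between them, was found in 0 of the 28 windows, against 3.57% of all windows. An ETS-IRF composite, GGAA and GAAA with any 2 bases between them, was also found in 0, against 2.82%. These are matches of letters only, and the gene counts do not say which start a transcript used.

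Sequencing depth ranged from 39560072 to 65519047 gene reads per library, the median library having 52233344. IRF8, the targeted gene, stood at 36891, 15192, 43016 and 22535 normalized counts in Control replicates 1 to 4 and at 6377, 2401, 12903 and 7820 in IRF8 KO replicates 1 to 4. The groups did not overlap (log2 fold change -2.11, SE 0.51, adjusted p = 0.022 with limma and Benjamini-Hochberg adjustment over all tested genes), and a two-sided exact permutation test over the 8 libraries gave p = 0.029, the smallest that 4 against 4 allows. The limma call was lost without Control 1 (-1.97, adjusted p = 0.058), without Control 3 (-1.89, adjusted p = 0.057) and without IRF8 KO 1 (-2.12, adjusted p = 0.053). All 13 myelomonocytic markers had a mean of at least 10, and their sum ran from 88701 to 105218 in the Control and from 137799 to 378304 in the knockout, where IRF8 KO 1 was the highest through LYZ, the gene of lysozyme (248604 there against 13767 to 39385 in the other knockout libraries). The sum hides that these markers went both ways. CD33, FLT3, CSF1R, HOXA9 and MEIS1 had lower means in the knockout, and the other markers of this list had higher ones. Of the markers of other cells, T cell markers summed to at most 25.7, with 0 of 5 at a mean of 10. B cell markers summed to between 479 and 972 in the Control and between 436 and 1853 in the knockout (3 of 5 at a mean of 10, MS4A1 at 0), and erythroid and megakaryocyte markers to between 5625 and 14577 and between 2089 and 10107 (1 of 5, ITGA2B, with HBB and PF4 at 0). Epithelial markers summed to between 1473 and 3728 in the Control and between 60.7 and 242 in the knockout (2 of 5, KRT8 and KRT18, with KRT19 at 0). The part of these cell type markers in the differences below was not tested. By autosome, median log2 fold changes lay between -0.082 and 0.091 except on chromosomes 5 (0.22), 13 (0.16), 18 (-0.19), 20 (-0.92) and 21 (-0.33).

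PDE4B was close to the limit of detection in every Control library and clearly expressed in every IRF8 KO library. It stood at 0.804, 0.863, 0 and 0.942 normalized counts in Control replicates 1 to 4, which are 1, 1, 0 and 1 reads. In IRF8 KO replicates 1 to 4 it stood at 1112, 151, 578 and 468 normalized counts, which are 1044, 158, 427 and 476 reads. The lowest knockout library was thus far above the highest Control library, while the knockout libraries differed among themselves by 7.37 times between replicate 1 and replicate 2. The Control mean was 0.652 ± 0.438 and the knockout mean 578 ± 400 (SD, n = 4 each). Over the whole groups, 3 reads in the Control stood against 2105 in the knockout, a ratio of 825 after adjustment for depth, with an exact 95% interval of 282 to 4003 that covers counting error only. The fitted log2 fold change was 8.18 (SE 0.58), the third highest of the 13110 genes tested, but with so few Control reads its size depends on the pseudocount and on the model, and it ran from 6.38 to 9.74 over the settings tried. In bulk RNA, more cells that express a gene and more RNA per cell cannot be told apart. RefSeq lists an antisense gene, PDE4B-AS1, that overlaps PDE4B, and the strand setting of the counting was not given in the sources used here.

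PDE4D, the other PDE4 gene that was higher in the knockout, was well expressed in the Control as well. It stood at 1079, 1096, 1160 and 1360 normalized counts in Control replicates 1 to 4 and at 2204, 1785, 1870 and 4036 in IRF8 KO replicates 1 to 4. Every knockout library was above every Control library, and IRF8 KO 4 was far above the other knockout libraries. Group means were 1174 ± 129 and 2474 ± 1057 (SD, n = 4 each), a ratio of 2.11 and a log2 fold change of 1.00 (SE 0.25), on chromosome 5 with its median of 0.22. Taking libraries by replicate number, the differences on the log2 scale were 1.03, 0.70, 0.69 and 1.57.

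PDE4A, which is widely expressed and also rolipram-sensitive, did not separate the groups. It stood at 934, 989, 910 and 1020 normalized counts in Control replicates 1 to 4 and at 692, 1257, 471 and 441 in IRF8 KO replicates 1 to 4. The Control libraries lay close together, 3 of the knockout libraries were below all of them and IRF8 KO 2 was above all of them. The means were 963 ± 50.3 and 715 ± 378 (SD, n = 4 each), with a log2 fold change of -0.56 (SE 0.31) that was -0.88 without IRF8 KO 2 and -0.37 without IRF8 KO 4. PDE4C was at or near 0 throughout, with 0.804, 3.45, 1.07 and 1.88 normalized counts in the Control and 2.13, 0, 1.35 and 0 in the knockout, or 8 reads in all against 3. It fell below the filter on low values, a mean of 10 normalized counts, and has no fold change.

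**Figure D1:**
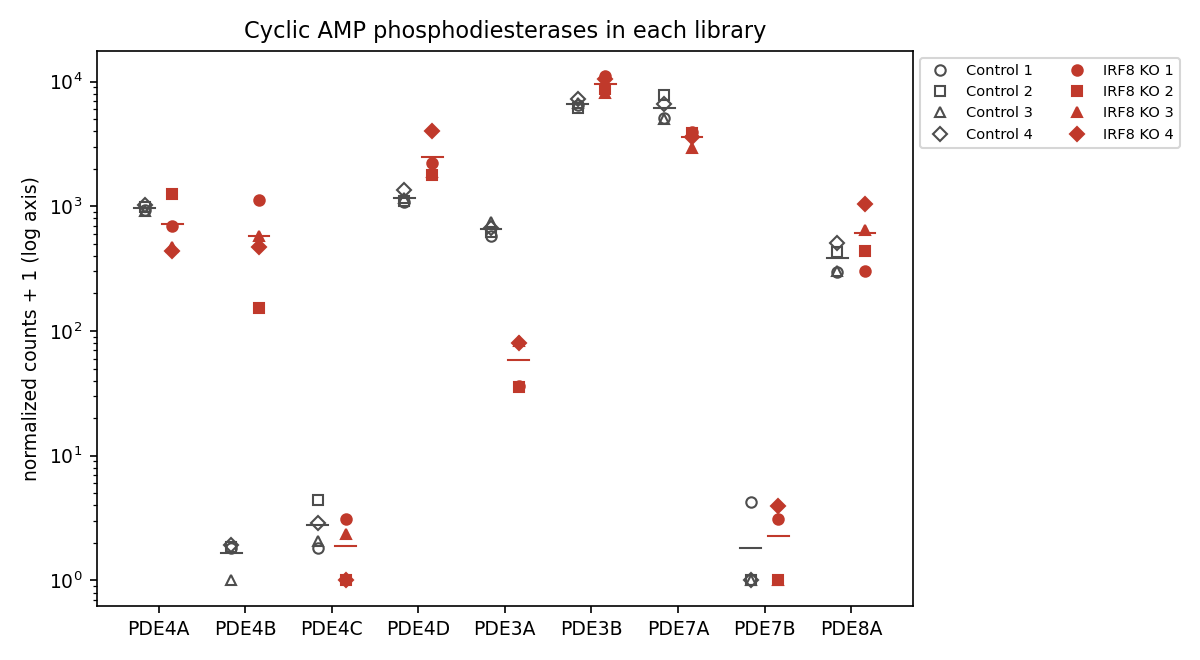
Normalized counts + 1 (log axis) of the 9 phosphodiesterase genes in each of the 4 Control libraries (open grey symbols) and the 4 IRF8 KO libraries (filled red symbols), with a line at each group mean. PDE4B sits at the floor in the Control and between 151 and 1112 normalized counts in the knockout, PDE3A shows the opposite shift, and PDE4C and PDE7B stay at the floor in both groups.

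The PDE3 genes went in opposite directions. PDE3A, the form of heart muscle, platelets and oocytes, stood at 582, 616, 740 and 673 normalized counts in Control replicates 1 to 4 and at 35.2, 34.4, 82.6 and 79.7 in IRF8 KO replicates 1 to 4. Every knockout library was far below every Control library, and knockout replicates 1 and 2 lay below replicates 3 and 4. The mean fell from 653 ± 69.4 to 58.0 ± 26.8 (SD, n = 4 each), which left 8.88% of the Control level, with a log2 fold change of -3.59 (SE 0.33). Of the 13110 tested genes, 161 had a log2 fold change at or below it, PDE3A included. PDE3B, the form of fat and liver that acts downstream of insulin, stood at 6447, 6132, 6734 and 7290 in the Control and at 11077, 8686, 8145 and 10459 in the knockout. These groups did not overlap either, but the shift was modest, from 6651 ± 492 to 9592 ± 1399 (SD, n = 4 each), a ratio of 1.44 and a log2 fold change of 0.52 (SE 0.13).

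PDE7A, a cAMP-specific enzyme of T cells and other lymphoid cells, was lower in the knockout. It stood at 5072, 7804, 5010 and 6563 normalized counts in Control replicates 1 to 4 and at 3933, 3875, 2912 and 3595 in IRF8 KO replicates 1 to 4. All knockout libraries lay below all Control libraries, among which replicates 2 and 4 were above 1 and 3. The mean fell from 6112 ± 1337 to 3579 ± 469 (SD, n = 4 each), to 58.5% of the Control, with a log2 fold change of -0.76 (SE 0.18). PDE7B was almost absent, with 4 reads in Control 1, 2 in IRF8 KO 1 and 3 in IRF8 KO 4 and none in the other libraries, and was not tested.

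PDE8A, a high-affinity cAMP phosphodiesterase, overlapped between the groups. It stood at 294, 430, 301 and 504 normalized counts in Control replicates 1 to 4 and at 301, 437, 646 and 1047 in IRF8 KO replicates 1 to 4. Knockout replicates 1 and 2 matched the Control libraries of the same number, with log2 differences of 0.03 and 0.02, while replicates 3 and 4 were higher by 1.10 and 1.05. The means were 382 ± 102 and 607 ± 325 (SD, n = 4 each), with a log2 fold change of 0.55 (SE 0.38) that ran from 0.24 to 0.84 when single libraries were left out.

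**Figure D2:**
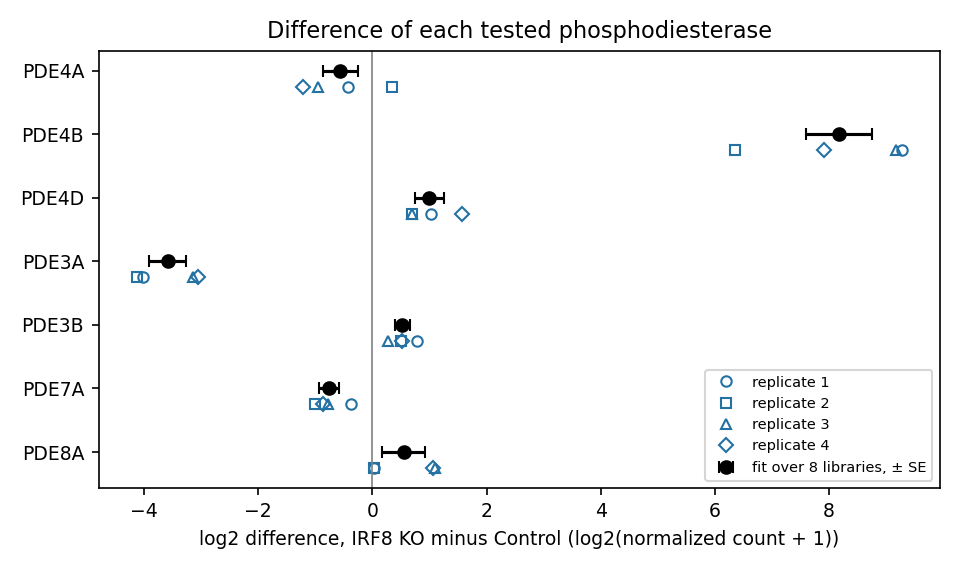
Difference of IRF8 KO minus Control in log2(normalized count + 1) for the 7 phosphodiesterase genes above the filter. Black points with bars are the fitted value ± SE over 8 libraries and open blue symbols are the differences of libraries with the same replicate number. PDE4B lies at 8.18, PDE4D and PDE3B lie above 0 and PDE3A and PDE7A below 0 in all 4 replicates, and PDE4A and PDE8A spread towards or across 0.

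Of the 9 genes, 7 passed the filter, and PDE4B did so only through its knockout libraries. Their groups did not overlap for 3 that were higher (PDE4B, PDE4D and PDE3B) and 2 that were lower (PDE3A and PDE7A). Over all 13110 tested genes, 25.3% did not overlap, with 12.3% higher and 13.0% lower. The same 5 had an adjusted p below 0.05, where 18.2% of all tested genes did, 8.65% higher and 9.56% lower. These were 2387 genes, or 3769 when the replicate number entered the model as a block. The study's own cut, a 2-fold difference and a p below 0.01 before adjustment, was applied to the limma fit, while the study used DESeq2. By it PDE4B was higher and PDE3A lower, where 10.9% of all tested genes passed, 4.78% higher and 6.12% lower. PDE4D lay at the fold limit, with a log2 fold change of 0.998 in limma and 1.08 with DESeq2 on the recovered reads. Since the genes were chosen with this contrast in view, nothing is read from these counts. Across the 8 libraries the log2 values of PDE4B had a Pearson r of -0.95 with PDE3A, 0.90 with PDE3B, 0.83 with PDE4D and -0.83 with PDE7A, and PDE4D had 0.90 with PDE3B. These correlations mostly restate the gap between the 2 groups that the 8 points share.

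Among genes above the filter, those nearest to PDE4B on chromosome 1 differed far less between the groups than PDE4B did. Genes below the filter were passed over, so nothing is said of them. Of the 5 tested genes on each side in the RefSeq order, 1 passed an adjusted p of 0.05 in the limma fit over all genes, and it was lower. JAK1 (0.16), AK4 (0.38), LEPR (0.40) and LEPROT (0.18) before PDE4B, and MIER1 (0.21), SLC35D1 (0.25) and SERBP1 (0.04) after it, had log2 fold changes of at most 0.40 and were not called. DNAJC6, which encodes the clathrin-uncoating protein auxilin, was the gene called lower, from 119, 210, 97.7 and 211 normalized counts in Control replicates 1 to 4 to 40.5, 79.3, 56.9 and 72.8 in IRF8 KO replicates 1 to 4 (log2 fold change -1.31, SE 0.34, adjusted p = 0.030). That call was lost without Control 2, Control 4, IRF8 KO 1, IRF8 KO 3 or IRF8 KO 4 (adjusted p between 0.052 and 0.080). The farthest neighbours on the other side, GADD45A of the DNA damage response (log2 fold change 1.48, adjusted p = 0.21) and WLS, a carrier of Wnt ligands (log2 fold change 1.29, adjusted p = 0.081), were called higher in the blocked fit (adjusted p = 0.019 and 0.0058), which called 3 of the 10. WLS was also called by DESeq2 (adjusted p = 0.0056) and by limma without IRF8 KO 2 (adjusted p = 0.025). LEPR and LEPROT overlap each other, as do MIER1 and SLC35D1, so reads of these pairs may be shared. Over all of chromosome 1, the median log2 fold change was -0.01.

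**Figure D3:**
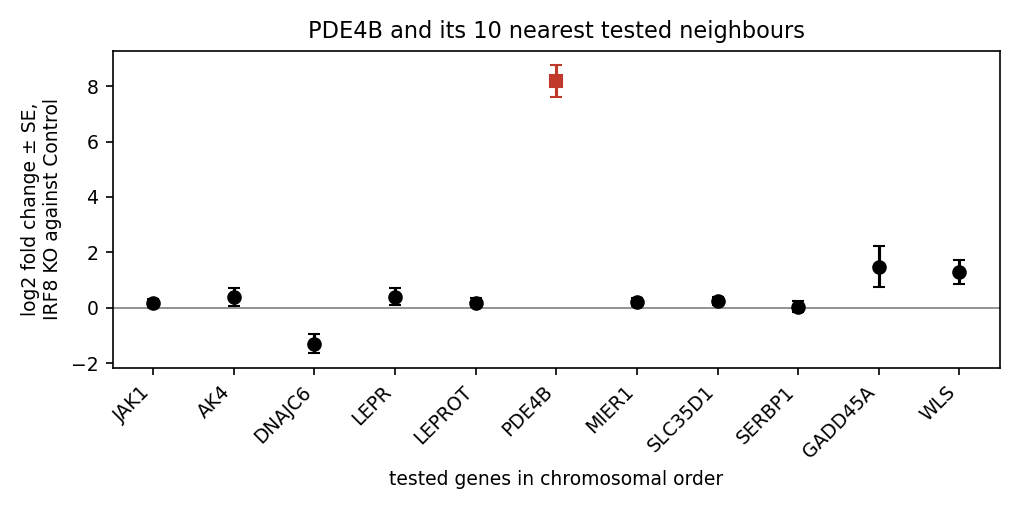
Log2 fold change ± SE of IRF8 KO against Control (vertical axis) for PDE4B (red square) and the 5 tested genes on each side of it (black circles), in chromosomal order and not to distance. PDE4B stands at 8.18 and the 10 neighbours between -1.31 and 1.48.

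The tested genes whose log2 values followed those of PDE4B most closely over the 8 libraries were ANXA11 (Pearson r 0.997), EFCAB12 (0.996), ELANE (0.996), SGK3 (0.994) and GFOD1 (0.993). ELANE, which encodes neutrophil elastase, stood at 2922, 2865, 2839 and 2843 normalized counts in Control replicates 1 to 4 and at 58196, 24555, 36883 and 31207 in IRF8 KO replicates 1 to 4. Its knockout libraries thus had the order of PDE4B, with replicate 1 the highest, then 3, 4 and 2. ANXA11, a calcium-binding annexin, had the same order at 10658, 9685, 9014 and 8047 in replicates 1, 3, 4 and 2, above 4330 to 4984 in the Control. The closest inverse patterns were those of C12orf75, IGLL5 and ZNF343 (each r -0.994), FZD2, a Wnt receptor, and C1orf21 (each r -0.993). ZNF343 (log2 fold change -1.42) lies on chromosome 20, with its median of -0.92. The likeness is a description over 8 libraries in 2 groups, from among 13110 genes.

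No other cAMP phosphodiesterase above the filter was called higher. Of 7 such genes outside the 9, 4 passed the filter and 1 was called at an adjusted p below 0.05 (limma), lower in the knockout, with a median log2 fold change of -0.38 against -0.00094 over all tested genes. PDE10A, a dual-specificity enzyme best known from the striatum, fell from 29.0, 218, 20.4 and 143 normalized counts in Control replicates 1 to 4 to 1.07, 12.4, 4.06 and 18.7 in IRF8 KO replicates 1 to 4 (log2 fold change -3.21, SE 0.94, adjusted p = 0.046). The groups did not overlap, and in both of them replicates 2 and 4 were above replicates 1 and 3. The PDE10A call was lost without Control 1, Control 2, Control 4 or IRF8 KO 1, 2 or 3 (adjusted p between 0.054 and 0.11). PDE1B, a calmodulin-dependent enzyme, stood at 1044, 832, 1086 and 965 in the Control and at 772, 706, 792 and 756 in the knockout, without overlap, and missed the threshold (log2 fold change -0.37, SE 0.13, adjusted p = 0.081). PDE8B (log2 fold change -0.34, adjusted p = 0.40) and PDE2A (-0.40, adjusted p = 0.74) overlapped between the groups. Of 8 genes on the list of cGMP phosphodiesterases 4 were tested, with a median log2 fold change of 0.21. Limma and edgeR called 0 of them, while 1 had an unadjusted p below 0.05 in limma and 1 was called by DESeq2. This list took in PDE6D, a carrier of prenylated proteins, so its median is not that of cGMP-hydrolysing enzymes alone. PDE6D had a log2 fold change of 0.13 (limma adjusted p = 0.51).

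Genes that make, sense and carry the cAMP signal were taken from lists for 10 roles, the phosphodiesterase lists included. Of 124 listed genes 88 were tested, and 25 of these were called at an adjusted p below 0.05, 9 higher and 16 lower, or 28.4% against 18.2% of all tested genes. In the blocked fit 36 were called (11 higher and 25 lower), and between 18 and 23 when single libraries were left out. Their median log2 fold change was -0.11. The lists were written with earlier results of these data known, so nothing is read from the share called, in all lists together or in any single list below.

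**Figure D4:**
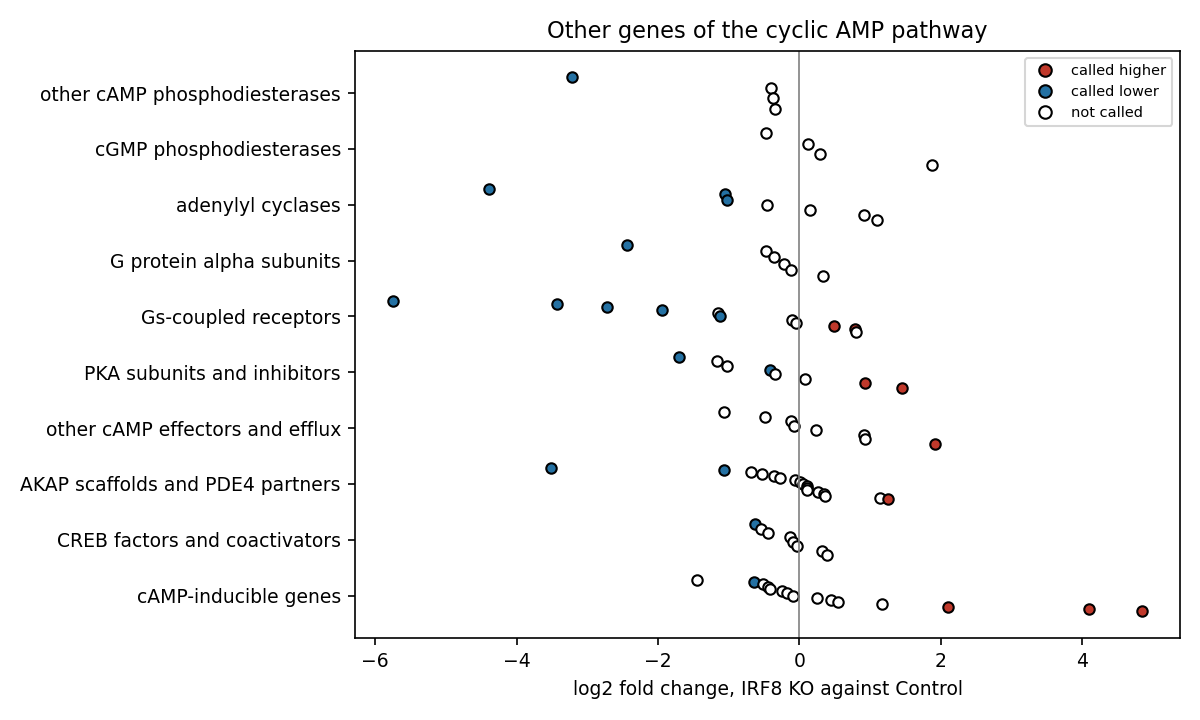
Log2 fold change of IRF8 KO against Control (horizontal axis) of the 88 tested genes in 10 lists of cAMP pathway genes (vertical axis). Each point is a gene, red where called higher and blue where called lower at an adjusted p below 0.05 and white where not called. The 3 called cyclases and 5 of the 7 called receptors lie below 0, and the 3 cAMP-inducible genes called higher lie above 2.

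Several receptors coupled to the stimulatory G protein were lower in the knockout. Of 25 listed 11 were tested, 2 were called higher and 5 lower, and the median log2 fold change was -1.12. The share called was 63.6%, against 18.2% of all tested genes, in a list written with earlier results known. HTR7, the serotonin receptor 5-HT7, fell from 542, 403, 607 and 553 normalized counts in Control replicates 1 to 4 to 10.7, 18.2, 1.35 and 15.7 in IRF8 KO replicates 1 to 4 (log2 fold change -5.75, SE 0.61, limma adjusted p = 4.6e-04). PTGIR, the prostacyclin receptor, fell from between 634 and 745 to between 88.4 and 383 (log2 fold change -1.94, adjusted p = 0.011), and GPBAR1, the membrane bile acid receptor, from between 27.6 and 154 to between 7.65 and 14.9 (log2 fold change -2.72, adjusted p = 0.011). PTGER2, a prostaglandin E2 receptor, had between 7.76 and 44.2 normalized counts in the Control and at most 2.95 in the knockout (log2 fold change -3.43, adjusted p = 0.0072), so its size depends on the pseudocount. The remaining called receptors were named after their values were seen. GPR65, a proton-sensing receptor, was lower (log2 fold change -1.12, adjusted p = 0.0011). HRH2, the histamine H2 receptor, rose from 4321, 4315, 4301 and 4058 in Control replicates 1 to 4 to 7990, 6781, 6982 and 7673 in IRF8 KO replicates 1 to 4 (log2 fold change 0.79, SE 0.10, adjusted p = 0.0011). PTGER4, the other tested prostaglandin E2 receptor, was called higher (log2 fold change 0.49, adjusted p = 0.039), but not without Control 1, 3 or 4 or IRF8 KO 2, 3 or 4 (adjusted p between 0.058 and 0.11) and not with upper quartile scaling (adjusted p = 0.051). HRH2 and PTGER4 both lie on chromosome 5, with its median of 0.22. ADORA2B, the adenosine A2B receptor, was not called (log2 fold change -0.11, adjusted p = 0.69).

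Of the G protein alpha subunits, 6 of 7 were tested and 1 was called, with a median log2 fold change of -0.28. GNAZ, a member of the inhibitory family, fell from 125, 102, 96.6 and 97.0 normalized counts in Control replicates 1 to 4 to 13.9, 25.8, 20.3 and 15.7 in IRF8 KO replicates 1 to 4 (log2 fold change -2.44, SE 0.27, limma adjusted p = 5.0e-04). GNAS, the stimulatory subunit itself, stood at 15393, 26626, 15958 and 23328 in the Control and at 15128, 15996, 14742 and 16004 in the knockout (log2 fold change -0.35, adjusted p = 0.23). It lies on chromosome 20, and the median over the 351 genes tested there was -0.92. GNAI3 did not overlap between the groups but was not called (log2 fold change -0.22, adjusted p = 0.18), and GNAI2 (-0.11, adjusted p = 0.58), GNAL (0.33, adjusted p = 0.58) and GNAO1 (-0.48, adjusted p = 0.79) were not called either.

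Adenylyl cyclases, which make cAMP, were lower where limma called them. Of 10 genes 7 were tested and limma called 3, all lower, with a median log2 fold change of -0.46. That was 42.9% of those tested, against 18.2% of all tested genes. DESeq2 called 4. ADCY6 fell from 52.3, 126, 40.8 and 114 normalized counts in Control replicates 1 to 4 to 1.07, 4.78, 1.35 and 4.92 in IRF8 KO replicates 1 to 4 (log2 fold change -4.39, SE 0.54, limma adjusted p = 9.0e-04). With so few knockout reads the size of the ADCY6 difference depends on the settings, and it ran from -4.73 to -3.35. ADCY3 fell from 4857, 2969, 4777 and 3164 to 1776, 1921, 2517 and 1369 (log2 fold change -1.05, adjusted p = 0.015), and ADCY9 from 2261, 2965, 2430 and 2585 to 1301, 1731, 910 and 1185 (log2 fold change -1.03, adjusted p = 0.0073). ADCY7, a cyclase of blood cells, stood between 4605 and 5081 in the Control and between 4515 and 6336 in the knockout and was not called (log2 fold change 0.15, adjusted p = 0.53). ADCY5 was higher in the knockout with overlapping groups, and limma did not call it (log2 fold change 0.91, adjusted p = 0.068). The 3 limma calls held when any single library was left out.

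Genes of PKA and its inhibitors went both ways. Of 10 genes 8 were tested, 2 were called higher and 2 lower, or 7 in all in the blocked fit, with a median log2 fold change of -0.38. PKIB, which encodes an inhibitor of the PKA catalytic subunit, rose from 1064, 702, 1001 and 873 normalized counts in Control replicates 1 to 4 to 1754, 2191, 3291 and 2978 in IRF8 KO replicates 1 to 4 (log2 fold change 1.46, SE 0.22, limma adjusted p = 0.0028), a call that held without any single library. The catalytic subunit gene PRKACB rose from between 285 and 423 to between 498 and 932 (log2 fold change 0.93, adjusted p = 0.025), while PRKACA fell from between 3092 and 3947 to between 2327 and 2938 (log2 fold change -0.41, adjusted p = 0.047). The PRKACB call was lost without Control 1, 3 or 4 or IRF8 KO 3 or 4 (adjusted p between 0.051 and 0.068) and the PRKACA call without Control 1, 3 or 4 or IRF8 KO 2, 3 or 4 (adjusted p between 0.079 and 0.13) or without the filter (adjusted p = 0.063). PKIG, another inhibitor, was called lower with overlapping groups, at between 276 and 745 in the Control and between 59.7 and 305 in the knockout (log2 fold change -1.70, adjusted p = 0.048). Its call was lost on leaving out any library but IRF8 KO 2 (adjusted p between 0.058 and 0.11) and with edgeR (adjusted p = 0.073), and it too lies on chromosome 20.

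The regulatory subunits of PKA, which hold the catalytic subunits inactive until cAMP binds, were not called by limma without the block. PRKAR1A stood between 10992 and 12768 in the Control and between 7936 and 10335 in the knockout (log2 fold change -0.34, limma adjusted p = 0.077), PRKAR1B had a log2 fold change of -1.02 (adjusted p = 0.077) and PRKAR2B of -1.17 (adjusted p = 0.25). In the fit with replicate number as a block, these 3 were called lower (adjusted p = 0.038, 0.0028 and 0.048), and so they were by DESeq2 on the recovered reads without a block (adjusted p = 0.026, 0.032 and 0.033). Leaving out Control 2, limma also called PRKAR2B (adjusted p = 0.031). PRKAR2A was not called (log2 fold change 0.09, adjusted p = 0.73).

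Of 23 listed genes of A-kinase anchoring proteins and PDE4 partners, 21 were in the table and 17 were tested, with 1 called higher and 2 lower, or 6 in all in the blocked fit. The 3 calls were 17.6% of the genes tested, against 18.2% of all tested genes, and the median log2 fold change was 0.05. AKAP7, an anchor of PKA at membranes, fell from 547, 555, 495 and 527 normalized counts in Control replicates 1 to 4 to 13.9, 55.4, 44.7 and 122 in IRF8 KO replicates 1 to 4 (log2 fold change -3.51, SE 0.54, limma adjusted p = 0.0030). PDE4DIP, which encodes myomegalin, a centrosome and Golgi protein that binds PDE4D, fell from 1207, 1429, 1321 and 1387 to 945, 705, 519 and 484 (log2 fold change -1.06, SE 0.21, adjusted p = 0.0096), in the direction opposite to PDE4D. AKAP5 was called higher, from between 21.7 and 41.8 to between 58.2 and 90.6 (log2 fold change 1.25, adjusted p = 0.019), but not without Control 4, IRF8 KO 1 or IRF8 KO 4 (adjusted p between 0.051 and 0.055). RACK1, a ribosomal scaffold that also binds PDE4D, was not called (log2 fold change 0.35, adjusted p = 0.31). Among other cAMP effectors and exporters 8 of 10 were tested, with a median log2 fold change of 0.08 and 1 call, or 2 in the blocked fit. POPDC2, a cAMP-binding membrane protein, was called higher in the knockout (log2 fold change 1.92, adjusted p = 0.021, lost without Control 1, Control 3 or IRF8 KO 4 with adjusted p between 0.052 and 0.061). The exporter ABCC5 was not called (log2 fold change -0.11, adjusted p = 0.61).

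Downstream, all 8 CREB factors and coactivators were tested, with a median log2 fold change of -0.11 and 1 call, or 4 in the blocked fit. CRTC3, a coactivator of CREB, was called lower (log2 fold change -0.62, limma adjusted p = 0.023, lost without Control 2, Control 4, IRF8 KO 1 or IRF8 KO 4 with adjusted p between 0.050 and 0.065), and the acetyltransferase EP300 was called lower in the blocked fit only (log2 fold change -0.45, adjusted p = 0.13 without the block and 0.048 with it). Of 16 genes known to be inducible by cAMP 15 were tested, 3 were called higher and 1 lower, and the median log2 fold change was -0.09. The share called was 26.7%, against 18.2% of all tested genes. PPARGC1A, a coactivator of mitochondrial biogenesis, stood at 1.61, 1.73, 0 and 0 normalized counts in Control replicates 1 to 4 and at 59.7, 25.8, 32.5 and 90.5 in IRF8 KO replicates 1 to 4 (log2 fold change 4.85, SE 0.56, adjusted p = 6.7e-04), so its size depends on the pseudocount. THBS1, which encodes the matrix protein thrombospondin, rose from between 23.6 and 28.2 to 2473, 73.6, 543 and 418 in IRF8 KO replicates 1 to 4 (log2 fold change 4.09, SE 0.87, adjusted p = 0.012), and its log2 fold change was 3.28 without IRF8 KO 1 and 4.96 without IRF8 KO 2. The THBS1 libraries of the knockout had the order of PDE4B, as did those of LYZ outside this list, but those of PPARGC1A and CD55 did not. CD55, a complement regulator, rose from 451, 1381, 377 and 1172 to 4000, 2711, 2354 and 3776 (log2 fold change 2.11, adjusted p = 0.010). SIK1, a kinase that restrains CREB coactivators, was called lower (log2 fold change -0.65, adjusted p = 0.046), but not without Control 1, 2 or 3 or IRF8 KO 1, 3 or 4 (adjusted p between 0.059 and 0.12) and not with quantile normalization (adjusted p = 0.10), and it lies on chromosome 21, with its median of -0.33. JUNB was not called (log2 fold change 0.25, adjusted p = 0.19).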

How the data were processed

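RNA of MV4-11 cells was sequenced after library preparation with the TruSeq Stranded mRNA kit. Per the study's methods, the authors aligned reads with RNA-Star to the GENCODE v32 transcriptome, counted them per gene with featureCounts and normalized them with DESeq2. The submitters' processing notes name hg19 and hg38 without saying which served the RNA-Seq, and the sources used here do not state the strand setting of the counting. What was analysed is the deposited signal per gene and library, counts that the authors divided by the size factor of each library. Wild type columns were taken as the Control libraries of the same number. The deposited table of the authors' own comparison, with log2 fold changes, Wald scores and p-values, was not used, and the ChIP-Seq samples were not analysed here. The value of 1 read was recovered from the low values, after which 100% of values were whole within 0.01 reads.

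Genes with a mean below 10 normalized counts were dropped. The other 13110 were fitted with limma 3.58.1 (R 4.3.3) on log2(normalized count + 1), using eBayes with its trend and robust options, and p-values were adjusted over all of them by the Benjamini-Hochberg method. The recovered reads were also fitted with edgeR 4.0.16 and with DESeq2 1.42.0 as alternatives, and each tool was tested on simulated data. The replicate numbers appear in the labels of both groups without a stated meaning. Deviations of same-numbered libraries from their group means correlated (r 0.37, 0.48, 0.45 and 0.50). Replicate 1 correlated better with another number (r 0.47), and replicates 2, 3 and 4 nearly as well (highest r 0.40, 0.41 and 0.41). Whether the numbers pair single libraries is thus uncertain. For some genes given above, among them IRF8, ADCY3, GNAS and CD55, Control replicates 1 and 3 lay apart from replicates 2 and 4. Such a split widens the Control spread in the fit without a block. Other genes, such as HRH2, did not show it, and its cause was not tested. The main fit had no block, and the replicate number entered as a block only in an alternative fit. Blocked values are given where they change a reported call or move a count of calls by more than 1.5 times. Symbols of 13012 tested genes matched RefSeq, which gave gene order and promoter windows.

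The 9 genes and the pathway and marker lists were chosen with earlier results of these data known. Besides the 9 genes and IRF8, genes were named by rule: all tested genes of the lists of other cAMP phosphodiesterases, G protein alpha subunits and PKA, up to 4 called genes with the largest change and the uncalled gene of highest mean in each other list, 5 neighbours on each side of PDE4B, and the 5 most and 5 least correlated genes. HRH2, PTGER4, GPR65 and ADCY5 fall outside this rule. A marker gene of the erythroid and megakaryocyte list is not reported here.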

Additional observations from a re-analysis of the deposited data

Results flagged for a closer look

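Of 144 groups of 4 libraries examined, 8 had a library set apart from the other 3 by more than Dixon's 95% critical value, where chance alone sets apart about 1 group in 20. Among the phosphodiesterase genes this was PDE4B in Control 3, which stood at 0 against 0.804 to 0.942 in the other Control libraries, a gap of a single read. GNAO1 in IRF8 KO 2 stood at 66.9 normalized counts against 4.06 to 11.8 in the other knockout libraries. RACK1 in IRF8 KO 1 stood at 71085 against 100479 to 105826. EP300 in IRF8 KO 3 stood at 3966 against 6547 to 6866. LEPR in IRF8 KO 4 stood at 1833 against 909 to 992. HRH2 in Control 4 stood at 4058 against 4301 to 4321. IGLL5 in IRF8 KO 2 stood at 100.4 against 18.1 to 25.7, and ZNF343 in the same library at 284 against 237 to 240.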

How the results depend on the processing

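The 7 phosphodiesterase genes above the filter kept the direction of their difference under every alternative tried. PDE4B alone moved by more than its spread between replicates, to a log2 fold change of 6.38 with a pseudocount of 5, 9.48 with edgeR and 9.74 with DESeq2 on the recovered reads, since its Control libraries held 3 reads in all. When single libraries were left out, it ran from 7.76 to 8.71, and IRF8 from -2.46 to -1.65. The number of genes called at an adjusted p below 0.05 over all genes was 3769 with the replicate block against 2387 without it, and 1665 to 2442 when single libraries were left out, and the count tests on the recovered reads called 2370 genes with edgeR and 3402 with DESeq2. Of the 10 neighbours of PDE4B, 1 was called, but 2 with DESeq2 and 3 with the replicate block, and between 0 and 2 when single libraries were left out. DESeq2 called 35 of the pathway genes (13 higher and 22 lower) against 25 with limma, 7 of the PKA genes against 4 with limma, 5 of the scaffolds and partners against 3, 3 of the CREB genes against 1 and 2 of the other cAMP phosphodiesterases against 1, PDE1B being the gene added. It also called 4 of the adenylyl cyclases, against 3 with limma. Calls near the threshold were lost for PKIG (upper quartile scaling 0.053, no filter and a filter of 100 both 0.051, edgeR 0.073), PRKACA (no filter 0.063), SIK1 (no filter 0.056, quantile normalization 0.10) and PTGER4 (upper quartile scaling 0.051), all adjusted p. The block moved the calls of PRKAR1A, PRKAR1B, PRKAR2B, EP300, GADD45A and WLS, given with those genes, and changed no other call of a gene whose test is reported. The genes that changed sign were uncalled before and after. When single libraries were left out, PDE2A (-0.40 in the main fit) ranged between -0.74 and 0.049, the latter without IRF8 KO 1. GNAO1 (-0.48) ranged between -1.20 and 0.048, the latter without IRF8 KO 3. PRKAR2A (0.09) ranged between -0.019, without IRF8 KO 1, and 0.18. SERBP1 (0.04) ranged between -0.098, without Control 2, and 0.16, with -0.05 without Control 4 and -0.01 without IRF8 KO 3. Quantile normalization took SERBP1 to -0.12. The cause of these shifts was not tested. At these depths 1 read is worth about 1 normalized count, so no fold change is given for PDE4C and PDE7B. The fold changes of PDE4B, PPARGC1A, PTGER2, ADCY6 and PDE10A carry a large counting error on their low side.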
